A study of Mus musculus with 12 samples.

Results

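The genes described here are 7 genes of MHC class II antigen presentation: Cd74, H2-Aa, H2-Ab1, H2-Eb1, H2-DMa, H2-DMb1 and Ciita. They were taken by symbol from a table of read counts with 43432 gene identifiers, and each symbol matched 1 identifier. The members were chosen by their measured levels in these same libraries, so their differences between groups are described and carry no p. RNA was sequenced from the gastrocnemius, the large calf muscle, of male mice. In exercised groups the mice had run for 90 min at a constant 60% of their maximal speed. The groups were exercised cFeimin MKO (MKO below), exercised fl/fl WT, sedentary cFeimin MKO and sedentary fl/fl WT, with 3 libraries each and 12 in all. WT mice carried both floxed alleles too, and cFeimin was knocked out in MKO mice only. The labels give no age, strain background, Cre driver, batch or time between the run and sampling.

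MHC class II molecules are pairs of an alpha and a beta chain that carry peptides from the endosomes of a cell to its surface, where CD4 T cells read them. H2-Aa and H2-Ab1 encode the 2 chains of I-A, and H2-Eb1 encodes the beta chain of I-E. The product of Cd74, the invariant chain, guards the empty groove, and the H2-M complex of H2-DMa and H2-DMb1 exchanges the last piece of it for a peptide. Ciita is the coactivator that switches these genes on together. Dendritic cells, B cells and macrophages hold most class II protein, and muscle fibres hold little at rest.

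Of the 7 genes, 5 lie in the H2 complex on chromosome 17 of GRCm38. H2-DMa is at 34119541 to 34139101, H2-DMb1 at 34153072 to 34160230, H2-Ab1 at 34257689 to 34269419 and H2-Eb1 at 34305867 to 34316674, all on the plus strand. H2-Aa is at 34282744 to 34287823 on the minus strand. Ciita is on chromosome 16 at 10480059 to 10528418, on the plus strand. All 7 are annotated as protein coding. H2-DMa shares 360 exonic bases with Brd2, and Ciita shares 329 with Dexi, in both cases on the opposite strand. No source used here says whether reads were counted by strand, so reads in those stretches cannot be assigned.

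The promoters show what several of these genes have in common in sequence. Class II promoters are known for an X box, bound by RFX and by CREB-type factors, and a Y box, bound by NF-Y, with Ciita assembled on top. RefSeq windows on GRCm38.p6, with 250 bases before and 50 after each start, were at hand for 4 of the 7 genes, H2-Aa, H2-Eb1, H2-DMa and H2-DMb1. The stretches below are shown because they hold the Y box letters in 3 members, in H2-Eb1 and H2-DMb1 with the X box letters and in H2-Aa without them. H2-DMb2 and H2-Ob, relatives with few counts in muscle, hold both and are shown for comparison. Capitals mark the Y box letters TGATTGG, the X box letters AACNNATGA, with N for any base, and, in H2-Aa, the cAMP response element letters TGACGTCA. Each runs 5′ to 3′ on the strand of its gene.
H2-Aa, chr17:34287857-34287933, minus strand: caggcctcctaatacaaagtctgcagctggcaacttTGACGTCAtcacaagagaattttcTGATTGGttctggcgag
H2-Eb1, chr17:34305746-34305822, plus strand: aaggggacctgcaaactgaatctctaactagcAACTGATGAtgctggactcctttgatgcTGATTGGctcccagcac
H2-DMb1, chr17:34153068-34153144, plus strand: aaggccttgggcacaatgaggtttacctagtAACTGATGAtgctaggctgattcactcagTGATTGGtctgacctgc
H2-DMb2, chr17:34145097-34145173, plus strand: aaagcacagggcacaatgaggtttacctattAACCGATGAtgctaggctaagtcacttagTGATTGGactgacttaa
H2-Ob, chr17:34238786-34238862, plus strand: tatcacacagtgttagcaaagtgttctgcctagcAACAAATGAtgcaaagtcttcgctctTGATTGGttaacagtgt

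The Y box began 50, 61 and 63 bases before the RefSeq start of H2-Aa, H2-Eb1 and H2-DMb1. For H2-DMb1 and H2-DMb2 that start and the Y box lie inside the annotated gene, which begins farther upstream, at 34153072 and 34143307. The gap between X box and Y box was 19 bases in H2-Eb1, 20 in H2-DMb1 and H2-DMb2, and 17 in H2-Ob. The windows of H2-Oa and H2-Eb2, relatives with fewer counts still, held the Y box letters, 45 and 102 bases before the RefSeq start, and not the X box letters. Neither RefSeq window of H2-DMa held any of the 3 sets of letters. Both windows lie inside the annotated gene, which begins at 34119541, so its outermost start was not searched. On either strand, the Y box letters stood in 2568 of 32851 windows of all genes (7.82%), the X box letters in 935 (2.85%) and the cAMP response element in 588 (1.79%). No motif overlapped another in the stretches shown. X and Y box letters stood together in 101 windows (0.31%), those of H2-Eb1, H2-DMb1, H2-DMb2 and H2-Ob among them. The letters were chosen after these promoters had been read, and the X box letters were shortened after a longer, rarer form had been searched, so the shares describe the genome and test nothing.

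Library totals lay between 14324010 and 14563501 counts, and 3 counts equalled 0.181 to 0.222 normalised CPM (counts scaled to library size). The labels do not name the mouse gene that was knocked out, and B230219D22Rik was taken as the Feimin gene from general knowledge. B230219D22Rik averaged 4.06 ± 0.533 CPM in exercised MKO and 25.4 ± 4.14 CPM in exercised WT, and 4.92 ± 1.25 CPM in sedentary MKO against 22.6 ± 1.41 CPM in sedentary WT (SD, n = 3 each). The 8 skeletal muscle markers summed to 106130 to 154678 CPM in each library. In 3 groups 1 library lay farthest from its mates: exercised MKO replicate 4, exercised WT replicate 5 and sedentary MKO replicate 3. Values without these 3 are given where they differ.

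Cd74 was the most abundant of the 7 genes and Ciita the least. TPM here divide counts by the length of all annotated exons of a gene, not of the transcript expressed. Over the 12 libraries, Cd74 averaged 41.3 ± 16.3 TPM, H2-Ab1 10.7 ± 4.82, H2-Eb1 7.68 ± 3.58 and H2-Aa 6.89 ± 2.96 TPM (SD). The peptide editors were lower, at 1.42 ± 0.731 TPM for H2-DMb1 and 1.23 ± 0.48 TPM for H2-DMa, and Ciita averaged 0.0479 ± 0.0389 TPM. The order of close genes depends on the exon lengths, 3798 bases for H2-Aa, 1944 for H2-Eb1, 3448 for H2-DMa and 1681 for H2-DMb1. By total counts H2-Aa (3086) stood above H2-Eb1 (1758), and H2-DMa (501) above H2-DMb1 (281). Within sedentary WT muscle, H2-Eb1 at 7.79 ± 0.706 and H2-Aa at 6.94 ± 0.919 TPM did not differ beyond their spread, nor did H2-DMb1 at 1.28 ± 0.25 and H2-DMa at 1.02 ± 0.17 TPM (SD, n = 3 each). For scale, the class I heavy chain gene H2-K1 averaged 20.6 ± 3.83 TPM and its light chain gene B2m 169 ± 16.5 TPM in the same group.

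Cd74 lies at 60803848 to 60812652 on the plus strand of chromosome 18 (GRCm38). This invariant chain gene followed a simple order over the groups: lowest in exercised WT and highest in sedentary MKO. Cd74 had 52.1, 37.2 and 59.3 CPM in exercised MKO, against 23.8, 27.0 and 16.2 CPM in exercised WT. Cd74 had 64.2, 65.4 and 59.6 CPM in sedentary MKO, against 56.2, 50.6 and 45.9 CPM in sedentary WT. The 3 exercised WT libraries lay below the other 9, and the MKO and WT libraries did not overlap in either state.

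The I-A chains moved as a pair. H2-Aa had 20.1, 12.7 and 24.2 CPM in exercised MKO and 9.69, 9.67 and 5.97 CPM in exercised WT. In sedentary muscle it had 25.1, 24.1 and 24.9 CPM in MKO and 20.7, 17.4 and 15.4 CPM in WT. Exercised WT was again below the other libraries, and sedentary MKO was the tightest group. H2-Ab1 had 19.4, 13.2 and 25.2 CPM in exercised MKO and 9.19, 9.60 and 6.11 CPM in exercised WT. It had 25.7, 25.4 and 27.9 CPM in sedentary MKO and 21.1, 19.3 and 16.9 CPM in sedentary WT. The I-E beta chain kept the same order of groups. H2-Eb1 had 11.2, 6.14 and 14.5 CPM in exercised MKO and 4.81, 5.31 and 3.54 CPM in exercised WT. It had 13.8, 14.1 and 15.3 CPM in sedentary MKO and 10.8, 9.36 and 10.5 CPM in sedentary WT.

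The 2 chains of the peptide editor H2-M were higher in every MKO library than in any WT library at rest, while their genotypes overlapped after exercise. H2-DMa had 3.22, 1.70 and 4.09 CPM in exercised MKO and 2.26, 2.44 and 1.47 CPM in exercised WT. It had 3.66, 4.07 and 4.11 CPM in sedentary MKO and 2.61, 2.69 and 1.85 CPM in sedentary WT. H2-DMb1 had 1.92, 0.888 and 2.37 CPM in exercised MKO and 0.849, 1.03 and 0.295 CPM in exercised WT. It had 2.26, 2.80 and 2.30 CPM in sedentary MKO and 1.17, 1.75 and 1.44 CPM in sedentary WT. H2-DMb1 rests on 4 to 42 counts per library and shares 11.3% of its 100-base stretches with H2-DMb2, so its level is uncertain.

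Ciita was near the limit of detection. It had 4, 0 and 7 counts in exercised MKO, 0, 0 and 5 in exercised WT, 9, 10 and 6 in sedentary MKO, and 0, 7 and 6 in sedentary WT. The group sums were 11, 5, 25 and 13 counts in that order, with exact Poisson 95% intervals of 5.49 to 19.7, 1.62 to 11.7, 16.2 to 36.9 and 6.92 to 22.2. These intervals cover counting error only. Ciita did not pass the low-count filter, and a difference between genotypes was not detectable at this depth. Fitted without the filter, its log2 fold change was 1.04 ± 1.28 for exercised MKO against WT and 0.86 ± 0.98 for sedentary MKO against WT (SE).

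**Figure D1:**
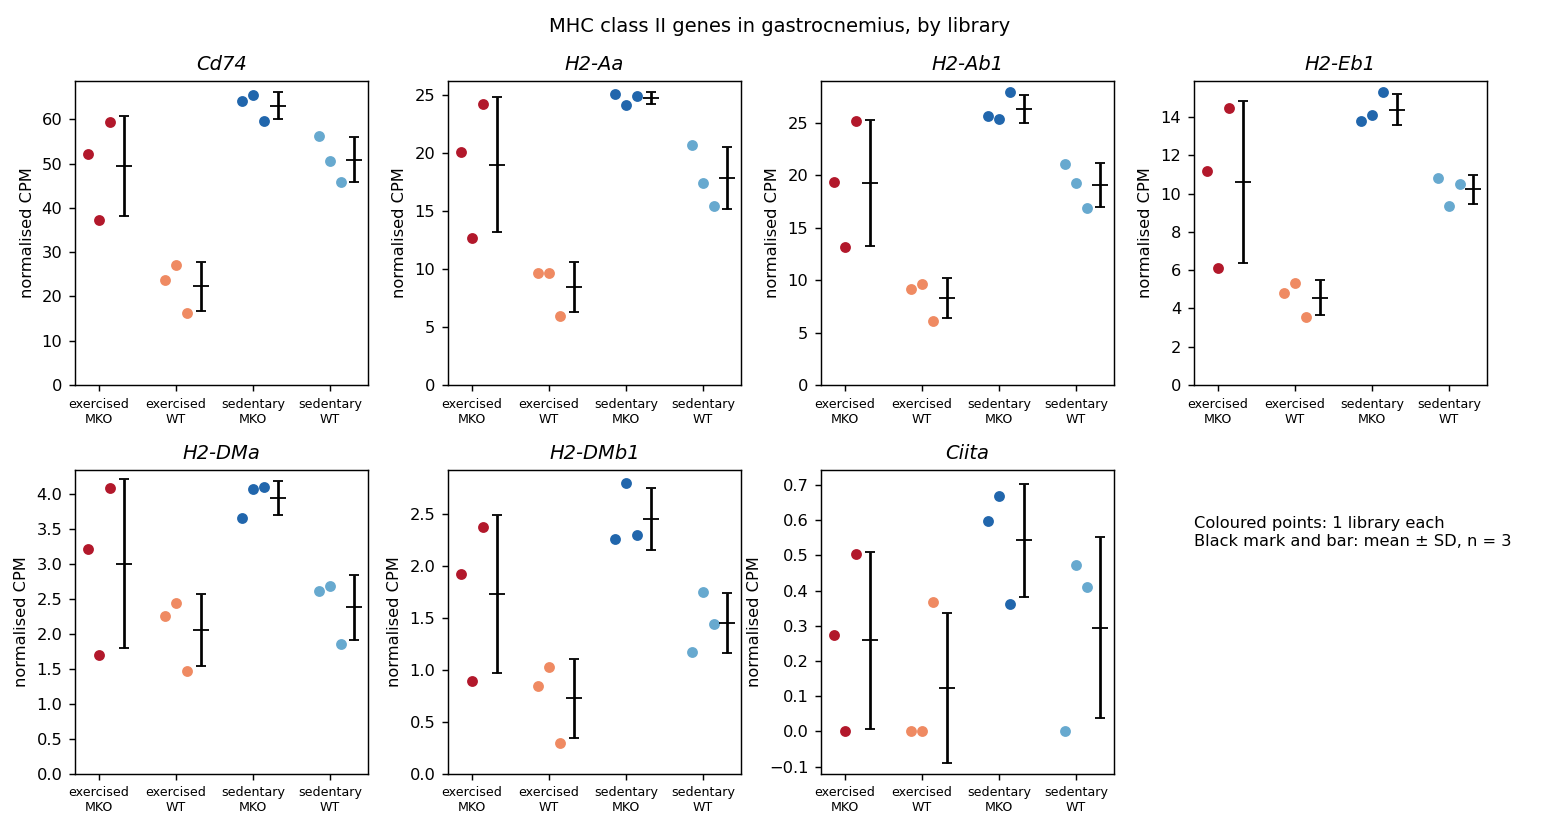
Normalised CPM of the 7 class II genes (y axis) in each library of the 4 groups (x axis), as coloured points, with the mean ± SD of 3 libraries in black. By its mean, exercised WT is the lowest group in each panel, and sedentary MKO is the highest.

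The other class II chain genes were barely present. H2-DMb2, a near copy of H2-DMb1, had 0, 3 and 6 counts in exercised MKO, 0, 2 and 0 in exercised WT, 11, 12 and 12 in sedentary MKO, and 8, 7 and 0 in sedentary WT. H2-DMb2 passed the filter but not the test in any comparison. H2-Oa, which with H2-Ob restrains H2-M, had 3 counts in 1 library, and H2-Ob had 12 counts in 3. H2-Eb2 and H2-Ea-ps, the I-E alpha chain gene annotated as a polymorphic pseudogene, had 0 counts in all 12 libraries, a total that allows up to 3 counts.

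The member differences that passed the test were those of exercise in WT muscle. Cd74, H2-Aa, H2-Ab1 and H2-Eb1 fell, with log2 fold changes of -1.19 ± 0.19, -1.08 ± 0.23, -1.20 ± 0.22 and -1.16 ± 0.26 for exercised WT against sedentary WT (SE). H2-DMb1 was at -0.99 ± 0.42 and H2-DMa at -0.21 ± 0.30, and neither passed. Thus 4 of the 6 members that could be tested passed at an adjusted p under 0.05, all lower, while 4.10% of all 14486 genes tested passed in that direction. Between the groups 5 of the 6 did not overlap, as was the case for 14.7% of all genes in that direction. The members' median was -1.12 and that of all genes -0.01. Leaving out exercised WT replicate 5 left 2 members past the threshold, with H2-Aa at -0.88 and H2-Eb1 at -1.01 no longer among them, and leaving out sedentary WT replicate 1 lost H2-Aa at -0.95. Without the 3 outlying libraries together 4 members passed. In whole muscle, fewer cells of a type and less RNA per cell cannot be told apart.

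In MKO muscle no member passed between exercised and sedentary mice, and the 6 fold changes were all negative. The log2 fold changes for exercised MKO against sedentary MKO were -0.35 ± 0.19 for Cd74, -0.38 ± 0.22 for H2-Aa, -0.45 ± 0.20 for H2-Ab1 and -0.44 ± 0.23 for H2-Eb1 (SE). H2-DMa was at -0.39 ± 0.27 and H2-DMb1 at -0.50 ± 0.34. Against 0 of 6 members, 1.75% of all genes passed as lower, and 2 members, Cd74 and H2-Ab1, did not overlap, as was the case for 11.6% of all genes in that direction. The median of -0.41 moved to -0.17 without exercised MKO replicate 2, the library with the lowest values of its group, to -0.68 without exercised MKO replicate 4 and to -0.64 without the 3 outlying libraries together.

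Between genotypes after exercise, the 6 members were all higher in MKO and none passed. For exercised MKO against exercised WT, the log2 fold changes were 1.15 ± 0.19 for Cd74, 1.17 ± 0.23 for H2-Aa, 1.21 ± 0.22 for H2-Ab1 and 1.22 ± 0.26 for H2-Eb1 (SE). H2-DMb1 was at 1.24 ± 0.41 and H2-DMa at 0.55 ± 0.29. Few genes passed in this comparison at all, 0.0345% in either direction, and the unadjusted p was under 0.05 for 2319 genes. 4 members did not overlap between the groups, against 11.0% of all genes in that direction. DESeq2 called 4 members and 0.656% of all genes, and edgeR without exercised MKO replicate 2 called 4 members and 0.732% of all genes. The 4 were Cd74, H2-Aa, H2-Ab1 and H2-Eb1 in both cases. Replicate 2 had the lowest member values of exercised MKO, so leaving it out raises these fold changes by construction. No other alternative called a member in this comparison. The median of 1.19 was 0.77 without the 3 outlying libraries together.

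Between genotypes at rest, the MKO and WT libraries did not overlap for any of the 6 members, and none passed. For sedentary MKO against sedentary WT, the log2 fold changes were 0.31 ± 0.19 for Cd74, 0.47 ± 0.22 for H2-Aa, 0.46 ± 0.20 for H2-Ab1 and 0.50 ± 0.23 for H2-Eb1 (SE). H2-DMa was at 0.73 ± 0.27 and H2-DMb1 at 0.75 ± 0.35. Of all genes, 5.43% were higher in MKO without overlap and 0.00690% passed in either direction, with 545 at an unadjusted p under 0.05. No member passed, with edgeR or DESeq2. The sedentary WT libraries enter this comparison and that of exercise in WT, and the other comparisons share groups in the same way, so their values are not independent.

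The difference of the exercise responses, MKO minus WT, was 0.84 ± 0.27 for Cd74, 0.70 ± 0.32 for H2-Aa, 0.75 ± 0.30 for H2-Ab1 and 0.73 ± 0.35 for H2-Eb1 on the log2 scale (SE). H2-DMb1 was at 0.49 ± 0.54 and H2-DMa at -0.18 ± 0.40. No member and none of the genes tested passed (0.00%), with 534 genes at an unadjusted p under 0.05 and 3 called by DESeq2. A response in MKO that differs from that in WT is not shown for these genes. The median of 0.71 was 0.32 without the 3 outlying libraries together and 0.46 without exercised MKO replicate 4.

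**Figure D2:**
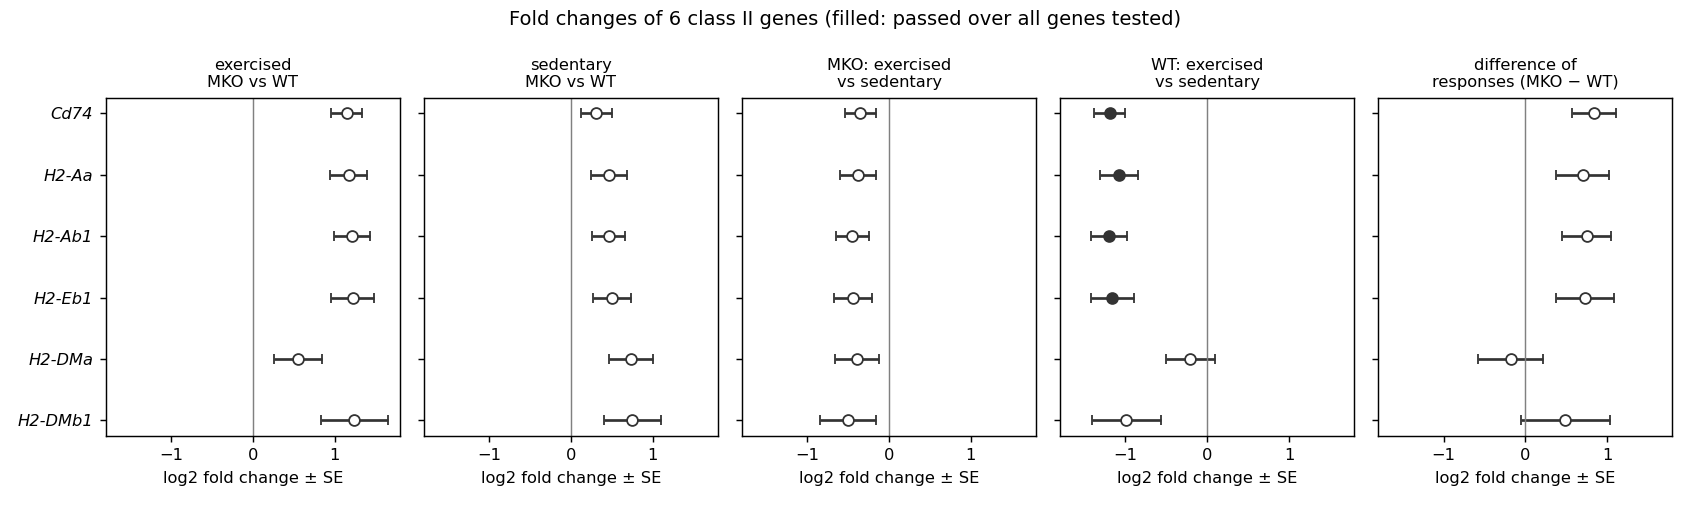
Log2 fold change ± SE (x axis) of the 6 class II genes that passed the low-count filter (rows) in the 5 comparisons (panels), with filled points for genes that passed over all genes tested. Filled points stand only in the panel of exercise in WT, for Cd74, H2-Aa, H2-Ab1 and H2-Eb1.

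Cd74, H2-Aa, H2-Ab1 and H2-Eb1 kept closer proportions to each other than the H2-M chains did to them. The highest library held 4.04 to 4.57 times the CPM of the lowest for Cd74, H2-Aa, H2-Ab1 and H2-Eb1, 2.79 times for H2-DMa and 9.52 times for H2-DMb1. The lowest library was exercised WT replicate 5 for all 6, and the highest was a sedentary MKO library. Over the same 12 libraries the count ratio of H2-Aa to H2-Ab1 stayed within 0.894 to 1.05, that of Cd74 to H2-Ab1 within 2.13 to 2.82, and that of H2-Eb1 to H2-Ab1 within 0.466 to 0.619. The H2-M chains varied more against H2-Ab1, with a highest ratio of 2.32 times the lowest for H2-DMa and 2.29 times for H2-DMb1. For the other 3 genes the highest ratio was 1.18 to 1.33 times the lowest. H2-DMb1 had 4 to 42 counts per library and H2-DMa 20 to 68, against 83 to 462 for H2-Ab1. The lowest H2-DMb1 level and ratio both came from the 4 counts of exercised WT replicate 5. The exact Poisson interval of that count, taken as for Ciita, was 1.09 to 10.2. The part of counting error in the wider spread of the H2-M chains was not tested. The H2-DMb1 ratio was 0.0674 to 0.0986 in exercised MKO and 0.0482 to 0.108 in exercised WT, and 0.0823 to 0.111 in sedentary MKO and 0.0554 to 0.0906 in sedentary WT, so the groups overlapped. The H2-DMa ratio was 0.129 to 0.165 in exercised MKO and 0.241 to 0.254 in exercised WT, and 0.142 to 0.161 in sedentary MKO and 0.109 to 0.139 in sedentary WT. The 3 exercised WT libraries thus stood above the other 9 for H2-DMa. Brd2, the overlapping neighbour of H2-DMa, had 45.0 ± 1.72 CPM in exercised WT and 54.7 ± 3.67 CPM in sedentary WT (SD). Its log2 fold change between these groups was -0.28 ± 0.08, against -0.21 ± 0.30 for H2-DMa and -1.20 ± 0.22 for H2-Ab1 (SE). Relative to H2-Ab1, Brd2 and H2-DMa were therefore both higher in exercised than in sedentary WT, as any gene that fell less than H2-Ab1 is. For MKO against WT, Brd2 was at -0.05 ± 0.08 exercised and -0.13 ± 0.08 sedentary (SE). H2-DMa was at 0.55 ± 0.29 and 0.73 ± 0.27 there. In exercised against sedentary MKO, Brd2 was at -0.20 ± 0.08 and H2-DMa at -0.39 ± 0.27. The part of Brd2 reads in the H2-DMa counts was not tested.

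**Figure D3:**
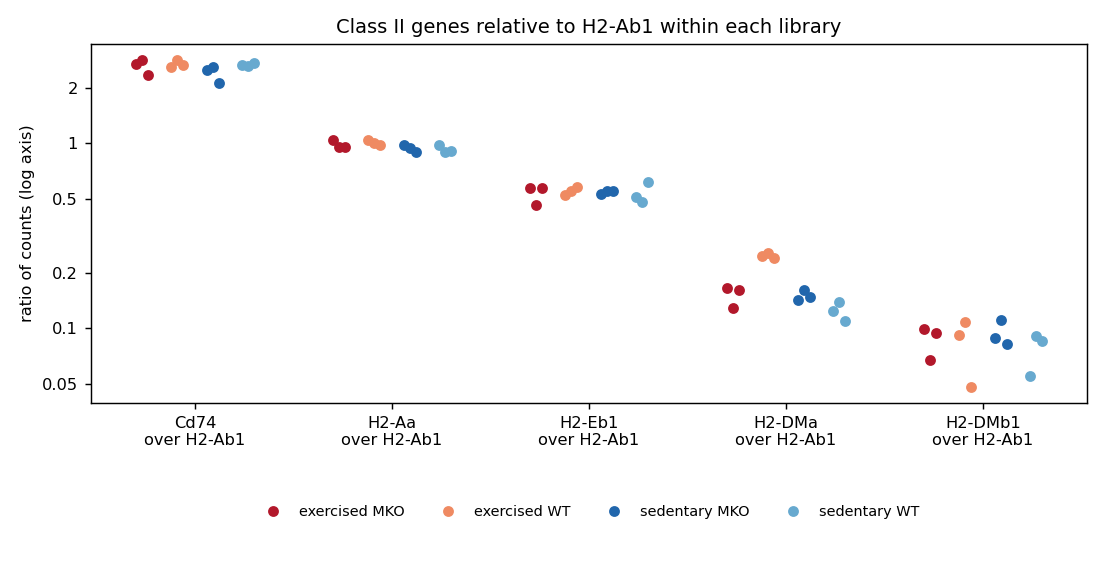
Ratio of each gene's counts to those of H2-Ab1 (y axis, log scale) for 5 class II genes (x axis), with 1 point per library coloured by group. The H2-Aa ratio stays between 0.894 and 1.05, while the H2-DMa ratio of exercised WT, 0.241 to 0.254, stands above the other groups.

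Pairs of members were correlated across the 12 libraries at Pearson's r from 0.78 for Cd74 with H2-DMa to 0.99 for H2-Aa with H2-Ab1. These points share library scaling and the group differences, so the values are descriptions. With the mean z-score of the 6 tested members as the yardstick, the most alike of 14480 other genes were C1qa (r = 0.98), Pop7 (0.97), Il10ra (0.97), Rps28 (0.97) and Rps10-ps2 (0.96). Then came Gm13192 (0.96), C1qc (0.96), Rps10-ps1 (0.96), Tmem254c (0.95) and Col1a1 (0.95). C1qa and C1qc encode chains of complement C1q, which macrophages make, Il10ra encodes the interleukin 10 receptor, and Col1a1 encodes a chain of collagen I. The Rps10 pseudogenes are near-identical to an expressed gene, so their reads are uncertain. Without exercised WT replicates 5 and 3, the libraries farthest from the median, C1qa kept r = 0.95 over 10 libraries. Over the same libraries C1qc kept 0.96, Rps28 0.93 and Col1a1 0.95. The deviations from the group means gave 0.91 for C1qa, 0.83 for C1qc, 0.92 for Rps28 and 0.89 for Col1a1. Over the 10 macrophage markers tested, described below, the deviations gave -0.14 for Mertk up to 0.91 for C1qa. In all, 69 genes had r above 0.9.

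Macrophage markers were lowest in exercised WT by their summed level, as the class II genes were, and none of the 12 was at 0 in all libraries. Their 12 genes summed to 65.6 to 153 CPM in exercised MKO, 51.3 to 60.6 in exercised WT, 119 to 164 in sedentary MKO and 78.0 to 110 CPM in sedentary WT. The 7 class II genes summed to 71.7 to 130, 34.0 to 55.1, 135 to 137 and 92.3 to 113 CPM in the same order of groups. For C1qa the level was 14.4 ± 4.83 CPM in exercised MKO, 7.07 ± 1.9 in exercised WT, 18.7 ± 3.23 in sedentary MKO and 12.5 ± 0.87 CPM in sedentary WT (SD, n = 3 each). All 10 markers tested had a positive log2 fold change in MKO against WT, with medians of 1.09 exercised and 0.58 sedentary, and none passed. In exercised against sedentary WT all 10 were negative (median -0.72) and 2 passed, while 4.10% of all genes passed as lower. The 2 were C1qc at -0.72 ± 0.19 (adjusted p = 0.04, edgeR) and the haemoglobin scavenger receptor gene Cd163 at -0.94 ± 0.19 (adjusted p = 0.00841, edgeR). In MKO muscle Cd163 fell, at -0.90 ± 0.18 (adjusted p = 0.0143, edgeR), and the list's median was -0.24. There 1.75% of all genes passed as lower.

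The summed class II counts were 2.07 to 3.21 times those of C1qa, C1qb and C1qc together in the 12 libraries, with 2.33 to 2.85 in exercised MKO, 2.07 to 2.38 in exercised WT, 2.13 to 3.18 in sedentary MKO and 2.77 to 3.21 in sedentary WT. C1qa and C1qc are among the 10 genes most alike to the members in these same libraries, so the C1q ratio is no separate test. Against the whole macrophage list the ratio ran from 0.661 to 1.36. The 5 pan-leukocyte markers summed to 11.8 to 30.7 CPM in exercised MKO, 10.6 to 12.6 in exercised WT, 22.6 to 34.0 in sedentary MKO and 12.2 to 17.5 CPM in sedentary WT, and none of them passed in any comparison. The 6 endothelial markers had medians of 0.02 and -0.03 for MKO against WT, exercised and sedentary, and -0.35 and -0.38 for exercise in MKO and in WT, and none passed. The part of the number of macrophages or other leukocytes in the class II levels was not tested.

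**Figure D4:**
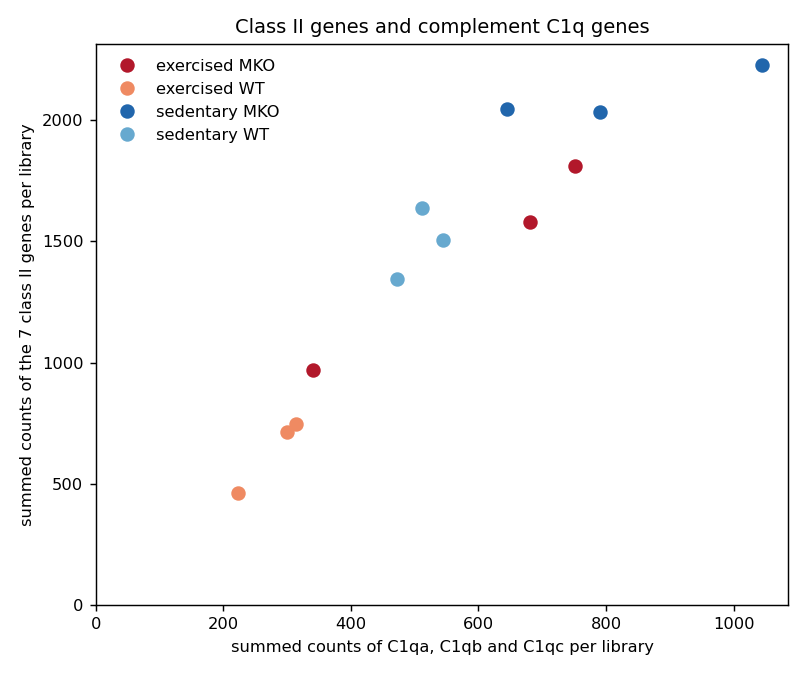
Summed counts of the 7 class II genes (y axis) against those of C1qa, C1qb and C1qc (x axis), with 1 point per library coloured by group. The exercised WT libraries lie at the lower left, and the ratio of the sums runs from 2.07 to 3.21.

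Of the other cells that present on class II, B cells left few counts. Blk and Fcmr had none in the 12 libraries, Ms4a1 had 2 in 1 library, and the B cell marker list summed to at most 1.3 CPM in exercised MKO, 0.884 in exercised WT, 0.334 in sedentary MKO and 0.343 CPM in sedentary WT. Cd79b, a chain of the B cell receptor complex and the only gene of the list that passed the filter, had 0 to 15 counts in exercised MKO, 0 to 12 in exercised WT, 0 in each sedentary MKO library and 0 to 5 in sedentary WT. It passed in no comparison, exercised against sedentary MKO included (adjusted p = 0.2, edgeR).

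The 9 dendritic cell markers summed to 9.33 to 11.9 CPM in exercised MKO, 7.73 to 8.63 in exercised WT, 7.88 to 9.25 in sedentary MKO and 5.56 to 7.61 CPM in sedentary WT. 4 of them could be tested. Clec10a, a lectin gene of dendritic cells and macrophages, averaged 1.33 ± 0.284 CPM in exercised MKO, 0.728 ± 0.137 in exercised WT, 2.39 ± 0.631 in sedentary MKO and 1.32 ± 0.5 CPM in sedentary WT (SD, n = 3 each). Its log2 fold changes had the signs of the class II genes, 0.86 ± 0.35 and 0.86 ± 0.29 for MKO against WT, exercised and sedentary, and -0.84 ± 0.29 and -0.85 ± 0.35 for exercise in MKO and in WT (SE), and none passed. The lectin gene Cd209a was at 0.96 ± 0.59 and -0.11 ± 0.51 for MKO against WT, exercised and sedentary, and at 0.01 ± 0.51 and -1.06 ± 0.58 for exercise in MKO and in WT, and none passed. The integrin gene Itgax had 5 to 22 counts in exercised MKO, 0 to 3 in exercised WT, 6 to 14 in sedentary MKO and 0 in each sedentary WT library. Itgax did not pass for MKO against WT, exercised (adjusted p = 0.204, edgeR) or sedentary (adjusted p = 1, edgeR). Zbtb46, a dendritic cell factor that endothelium also makes, rose with exercise by 0.83 ± 0.19 in WT (adjusted p = 0.0165, edgeR) and by 0.74 ± 0.18 in MKO (adjusted p = 0.0479, edgeR) on the log2 scale. Among the 5 not tested, Flt3 had 11 counts in 3 libraries and Clec9a 61 in 11.

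No change was called in the genes that act on class II promoters. The list of 8 holds the RFX subunits Rfx5, Rfxank and Rfxap, the NF-Y subunits Nfya, Nfyb and Nfyc, and Creb1 and Atf1. None passed in any comparison, and the list's medians were -0.07 for exercised MKO against WT, -0.07 for sedentary MKO against WT, 0.02 for exercise in MKO and 0.09 for exercise in WT. Rfx5 averaged 4.22 ± 0.394 CPM in exercised MKO, 5.08 ± 0.576 in exercised WT, 3.76 ± 0.152 in sedentary MKO and 4.61 ± 0.444 CPM in sedentary WT (SD, n = 3 each). Interferon gamma, the best known inducer of Ciita, had no counts in any library. None of the 8 tested genes of its signalling chain passed. Nearest was Irf1, a target of it, at -0.80 ± 0.23 for exercised against sedentary WT (adjusted p = 0.0537, edgeR).

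Of 8 tested genes that supply peptides to class II or act on its turnover, 2 passed, both higher after exercise. In WT 2 passed and in MKO 1. Of all 14486 genes tested, 599 passed as higher with exercise in WT and 332 in MKO. Ifi30, the thiol reductase that opens disulphide bonds of antigens, had 26.6 to 28.1 CPM in exercised MKO, 18.3 to 32.1 in exercised WT, 7.12 to 12 in sedentary MKO and 5.21 to 8.22 CPM in sedentary WT. It rose with exercise by 2.06 ± 0.25 in WT (adjusted p = 0.000393, edgeR) and by 1.60 ± 0.24 in MKO (adjusted p = 0.00359, edgeR). Cd83, which protects class II from turnover, rose in WT by 1.37 ± 0.37 (adjusted p = 0.0438, edgeR). It rests on few counts, 10 to 18 per library in exercised WT and 5 to 7 in sedentary WT. The other 6 tested genes of the list passed in no comparison, among them Ctss, the protease that trims the invariant chain, at 1.97 ± 0.57 in exercised MKO against WT (adjusted p = 0.205, edgeR).

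Class I presentation is carried by nearly all nucleated cells, and its summed level varied over a narrower range than that of class II. The 14 class I genes summed to 365 to 408 CPM in exercised MKO, 346 to 376 in exercised WT, 384 to 441 in sedentary MKO and 377 to 416 CPM in sedentary WT. The most abundant genes weigh most in this sum and in the ratio below. In exercised WT the chaperone gene Calr averaged 109 ± 5.11 CPM and B2m 72.7 ± 6.68 CPM. Tap1 averaged 1.09 ± 0.312 CPM and Psmb9 0.312 ± 0.272 CPM there (SD). With exercise in WT Calr was at 0.06 ± 0.09 on the log2 scale (SE). With exercise in WT 3 of the 14 passed, all lower, while 4.10% of all genes passed in that direction. These were B2m at -0.43 ± 0.11 (adjusted p = 0.0317), the peptide transporter gene Tap1 at -1.08 ± 0.29 (adjusted p = 0.0396) and the immunoproteasome gene Psmb9 at -1.96 ± 0.50 (adjusted p = 0.0315, edgeR). Psmb9 rests on few counts, 0 to 7 per library in exercised WT and 15 to 22 in sedentary WT. In MKO Tap1 fell, at -1.20 ± 0.28 (adjusted p = 0.0331, edgeR), while 1.75% of all genes passed as lower. The list's median was -0.21 in WT and -0.17 in MKO, and 0.11 and 0.03 for MKO against WT exercised and sedentary. The ratio of class II to class I counts was 0.192 to 0.357 in exercised MKO, 0.0982 to 0.146 in exercised WT, 0.305 to 0.356 in sedentary MKO and 0.223 to 0.298 in sedentary WT.

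**Figure D5:**
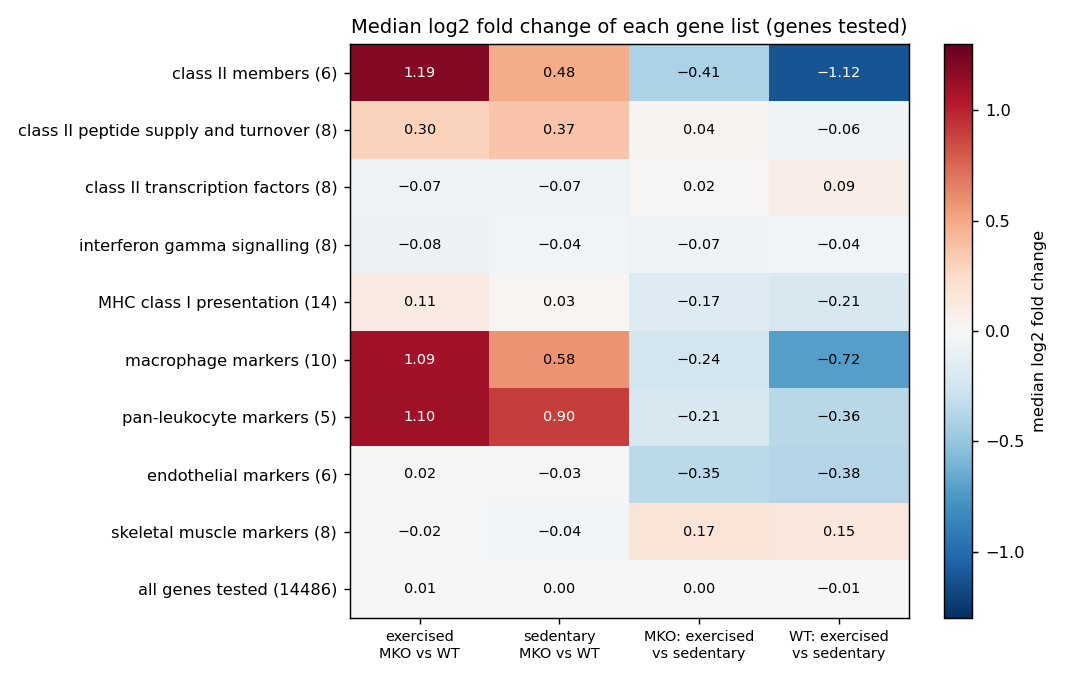
Median log2 fold change (colour and printed value) of each gene list (rows, with the number of genes tested) in 4 comparisons (columns). Class II members and macrophage markers carry medians of 1.19 and 1.09 in exercised MKO against WT, and all genes tested are near 0.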

How the data were processed

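Raw read counts per Ensembl gene were used as deposited, for 12 libraries of the 18 that the labels' protocols speak of. Per the submitters' processing notes, the authors used HISAT2 2.2.1 and StringTie 2.1.4, beside FastQC 0.12.1, SAMtools 1.9, DESeq2 1.40.2 and R 4.3, with the builds GRCm38.p6 and mm10. No source used here names the counting tool, its strand setting or its treatment of reads with several matches. One misspelt column was read as replicate 4 of exercised MKO, which had no other column. Symbols, positions and exon lengths came from GENCODE M21, in which 42548 identifiers had a symbol. The 884 others held 0.0875% of the counts.

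Counts went into 1 edgeR 4.0.16 quasi-likelihood fit of all 12 libraries (R 4.3.3) with 1 mean per group, TMM scaling and filterByExpr (minimum count 10, minimum total 15), which left 14486 genes. The threshold was an adjusted p of 0.05 (Benjamini-Hochberg over all genes tested). The p-values reflect the spread between these libraries alone, which may be technical. CPM are counts scaled to library size, and TPM divide counts by exon length. The members and lists were chosen with earlier results of these data known, so members get fold changes, standard errors and the side of the threshold as a description, with no p. From the lists, genes that passed and up to 3 with the lowest p were named, with defining markers near 0 and the 10 genes most alike. The likeness yardstick was the mean z-score of log2 CPM (prior count 2). Promoter letters were searched on both strands. Alternatives were DESeq2 1.42.0, voom (limma 3.58.1), other scalings and filters, fits of the compared groups alone, a replicate block and single libraries removed. Removing 3 outlying libraries at once was chosen after seeing the data. No replicates were duplicates of each other. The edgeR fit was tested on simulated data. The values of 1 listed marker are not reported here.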

Additional observations from a re-analysis of the deposited data

How the results depend on the processing

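All 104 medians over the members kept their sign under the alternatives, and 609 of 624 values of single members kept direction and side of the threshold. 5 fell below it, 8 rose past it and 2 reversed: H2-DMa in the difference of responses, 0.09 without exercised MKO replicate 2 (-0.47 to 0.09 over the libraries left out), and H2-DMb1 there, -0.21 without the 3 outlying libraries. Leaving those 3 out also moved the members' median to 0.77 for exercised MKO against WT and to 0.32 for the difference. For exercised MKO against WT, 5 genes passed, against 2 without a filter, 95 with DESeq2 and 2 with the replicate block, and members passing went to 4 with DESeq2. For sedentary MKO against WT, 1 gene passed, against 3 with DESeq2, 3 with voom, 2 with only the groups compared, 0 with the block and 3 without the outlying libraries. The difference called 1 gene with total counts alone, 3 with DESeq2, 4 with voom and 3 without the outlying libraries. The replicate block left 361 of 586 calls for exercise in MKO and 602 of 1193 in WT, with 2 members. The numbers did not pair the libraries: deviations of same-numbered libraries correlated at -0.15 to 0.08. With 1 library left out, genes passing ran from 2 to 108 for exercised MKO against WT (108 without exercised MKO replicate 2), 1 to 3 sedentary, 316 to 629 for exercise in MKO, 808 to 1303 in WT and 0 to 3 for the difference. Members passing ran from 0 to 4 for exercised MKO against WT and from 2 to 4 for exercise in WT. Medians ran from 0.95 to 1.4 for exercised MKO against WT, 0.45 to 0.57 sedentary, -0.68 to -0.17 for exercise in MKO, -1.29 to -0.94 in WT and 0.46 to 0.93 for the difference. The cause of these changes was not tested. Depth limits Ciita, H2-DMb2 and H2-DMb1 most.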

Other observations

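The 6 genes of signals that pass between presenting cells and T cells summed to 3.66 to 4.07 CPM in exercised MKO, 1.99 to 3.04 in exercised WT, 4.06 to 4.23 in sedentary MKO and 3.7 to 5.41 CPM in sedentary WT. Most of this came from Icosl and Cd274. Icosl, the ligand of the T cell receptor ICOS, averaged 2.81 ± 0.197 CPM in exercised MKO, 1.79 ± 0.293 in exercised WT, 2.23 ± 0.141 in sedentary MKO and 2.28 ± 0.572 CPM in sedentary WT (SD, n = 3 each). It passed in no comparison, nearest at 0.64 ± 0.20 for exercised MKO against WT (adjusted p = 0.211, edgeR). Cd80 and Pdcd1lg2 had no counts in the 12 libraries, while Cd86 had 2 to 8 counts in each library and Cd40 at most 6. Cd274, which encodes the inhibitory ligand PD-L1, averaged 0.525 ± 0.0597 CPM in exercised MKO, 0.361 ± 0.313 in exercised WT, 1.43 ± 0.153 in sedentary MKO and 1.68 ± 0.687 CPM in sedentary WT (SD, n = 3 each). It fell with exercise in WT, at -2.19 ± 0.53 on the log2 scale (adjusted p = 0.0258, edgeR) and was at -1.44 ± 0.50 in MKO (adjusted p = 0.17, edgeR). The 9 T cell and NK cell markers summed to at most 0.274 CPM, and Cd3d, Cd3g, Cd8a, Trac, Ncr1 and Nkg7 had no counts in any library. Cd4 had 11 counts in 4 libraries.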
